A study of Mus musculus with 16 samples.

Results

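Ivermectin was compared with its vehicle, DMSO, in wild-type BetaTC6, a β-cell line grown from an insulinoma of the mouse pancreas, with a C57BL/6 background. The comparison takes the 8 wild-type libraries of a series of 16, chosen by their genotype and treatment labels: 4 that received ivermectin and 4 that received DMSO. Cells of every group were grown for 3 days with serum, kept in buffer that held no glucose, and given 20 mM glucose for 30 min, so that each vehicle library is also glucose-stimulated. The labels name no ivermectin dose and do not say whether replicates came from separate cultures, so the p-values measure the spread between these libraries, which may be technical. The other 8 libraries, 4 with each treatment, come from a BetaTC6 line labelled P2ry1 knockout and are used only to ask whether a response differed between the lines, and no label says how many clones that line holds.

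Ivermectin is an antiparasitic drug that holds open glutamate-gated chloride channels of worms and also acts on some mammalian channels, among them the ATP-gated channel P2rx4. In β-cells, glucose metabolism closes potassium channels that are sensitive to ATP, calcium enters, and insulin granules are released. ATP is released with insulin and can act back on the cell through purinergic receptors such as P2ry1, which couples to Gq and calcium stores. Calcium and MAP kinase signals switch on immediate-early genes, most of which encode transcription factors and need no new protein to be transcribed, so that their RNA rises within minutes of a stimulus.

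Library totals were 893288 to 1065003 counts in wild-type vehicle and 1361370 to 1971541 in wild-type ivermectin libraries, so depth did not overlap between the groups. Values are given as CPM, counts scaled to a common total with TMM factors, and differences as log2 changes of ivermectin over vehicle from edgeR's quasi-likelihood fit. Where a library read no count of a gene, the limit that this allows was 2.82 to 3.36 CPM in vehicle and 1.52 to 2.2 CPM in ivermectin libraries, taking 3 counts as the limit and counting error alone. The label of the cells was checked with 11 markers that define β-cells, 10 of which were expressed and tested: their summed level was 31170 to 36100 CPM in vehicle and 31120 to 38500 CPM in ivermectin libraries. Ribosomal RNA precursor Rn45s took 2.99% of the counts in ivermectin replicate 4 and 0.143% to 0.167% in the rest of that group. P2ry1, the gene named in the knockout label, was at 85.4 to 106 CPM in the wild-type libraries and at 72.8 to 94.8 CPM in the libraries labelled knockout, so its RNA did not separate the lines, and counts over a whole gene would miss a small edit.

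Of 10822 genes tested, 6 rose and 60 fell with ivermectin at a Benjamini-Hochberg adjusted p of 0.05, which is 0.0554% and 0.554% of the genes (0.61% in either direction). That balance depended on the genes tested: 4 rose and 3 fell among genes with a mean of at least 50 counts, and 6 rose and 10 fell with a list of hepatocyte genes left out. All 6 that rose were immediate-early genes: Egr1, Fos, Junb, Ier2, Nr4a1 and Btg2. Of the 60 that fell, 49 are in that hepatocyte list and 11 are not, among them Scd1, Phyh, Sepp1, Cat, Fn1, Pygl, Mgst1, H2-Q10, Mug1 and Gm2083. The β-cell's hormone, granule and identity genes were not among the calls. An unadjusted p under 0.05 was found for 565 genes, 5.22% of those tested.

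**Figure D1:**
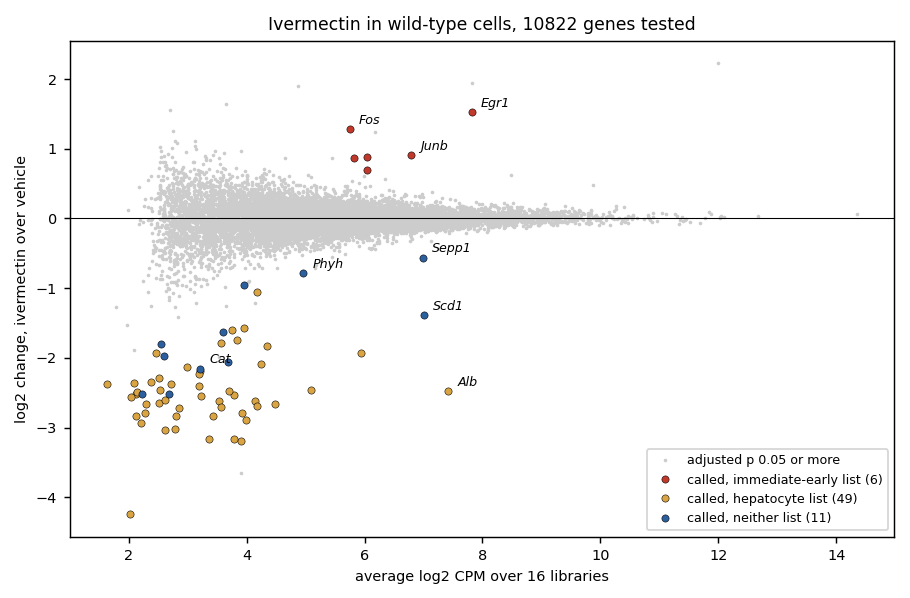
Each point is 1 of 10822 genes, with the average log2 CPM over 16 libraries on the horizontal axis and the log2 change of ivermectin over vehicle in wild type on the vertical axis. Coloured points passed an adjusted p of 0.05: the 6 immediate-early genes lie above 0, and the 49 hepatocyte-list genes and 11 others lie below it.

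Promoters of 4 of the 6 genes that rose are shown here because these genes moved together and their proximal promoters can be compared letter by letter. The promoters of Egr1 and Ier2 were not analysed here, so the matches below describe 4 genes and not all 6. Each line gives the 250 bases before the annotated transcription start, 5′ to 3′ on the gene's strand, from RefSeq's annotation of GRCm38.p6. Capitals mark TGACG or its reverse complement CGTCA, the shared core of the cAMP response element, which is the DNA motif that CREB family factors bind.
Fos, chr12:85473640-85473889, plus strand: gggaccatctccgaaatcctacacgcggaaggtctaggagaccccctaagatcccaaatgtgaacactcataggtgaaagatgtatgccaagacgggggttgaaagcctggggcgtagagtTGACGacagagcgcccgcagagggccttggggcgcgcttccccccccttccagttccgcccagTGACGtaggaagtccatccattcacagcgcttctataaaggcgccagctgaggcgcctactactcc
Junb, chr8:84978749-84978998, minus strand: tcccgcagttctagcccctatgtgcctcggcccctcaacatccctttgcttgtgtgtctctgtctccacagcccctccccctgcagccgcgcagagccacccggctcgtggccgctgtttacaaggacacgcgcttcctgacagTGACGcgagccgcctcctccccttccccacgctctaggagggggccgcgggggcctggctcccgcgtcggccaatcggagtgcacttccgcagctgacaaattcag
Nr4a1, chr15:101266596-101266845, plus strand: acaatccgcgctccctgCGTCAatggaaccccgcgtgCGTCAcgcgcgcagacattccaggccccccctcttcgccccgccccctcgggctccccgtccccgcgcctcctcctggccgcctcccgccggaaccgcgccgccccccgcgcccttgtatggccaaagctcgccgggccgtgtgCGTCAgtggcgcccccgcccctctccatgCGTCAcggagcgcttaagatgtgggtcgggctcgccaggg
Btg2, chr1:134079156-134079405, minus strand: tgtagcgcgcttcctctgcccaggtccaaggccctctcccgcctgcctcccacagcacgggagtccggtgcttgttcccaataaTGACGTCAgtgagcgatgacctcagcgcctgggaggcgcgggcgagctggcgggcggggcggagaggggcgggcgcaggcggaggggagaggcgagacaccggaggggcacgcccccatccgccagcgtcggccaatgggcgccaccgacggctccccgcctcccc

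The core site was present in all 4 windows: 2 matches in Fos, 1 in Junb, 4 in Nr4a1 and 2 in Btg2. Both Btg2 matches lie in 1 full element, TGACGTCA, from 166 to 159 bases before the start, where the matches on opposite strands overlap. Matches in Fos began 129 and 66 bases before the start, and a TATAA motif followed at 33. Nr4a1 held all 4 of its matches on the minus strand, at 233, 213, 69 and 40 bases before the start. Over all 27025 genes with a promoter in the table, taking 1 promoter for each gene, 17.9% held TGACG or its complement in the same window, and 29.3% of the 7822 tested genes with an entry did. The full element was in 1.62% of all promoters and in 3.07% of those of tested genes. GCGNGGGCG, the motif of Egr factors, was matched once in Nr4a1 and once in Btg2, and in 9.72% of tested genes. TGANTCA, the AP-1 motif bound by Fos and Jun proteins, and the CArG box bound by serum response factor were matched in none of the 4 windows, and in 3.71% and 1.11% of tested genes. A match describes these letters only, and a missing match describes these windows only. Bases further upstream were not searched for these genes. Near matches, such as CCTTGTATGG in the Nr4a1 window, were not counted as a CArG box. The missing matches therefore cannot show that these genes lack sites for serum response factor or AP-1. Across the immediate-early list without Egr1, 14 of 24 tested genes with an entry held the core site (58.3%).

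Egr1, a zinc finger transcription factor, was read at 139, 139, 81.2 and 112 CPM in the vehicle libraries and at 232, 393, 353 and 391 CPM in the ivermectin libraries. Every ivermectin library lay above every vehicle library, with replicate 1 the lowest of the treated ones. The log2 change was 1.53 (SE 0.134, edgeR adjusted p = 2e-09). Fos, a subunit of AP-1, was at 43.8, 33.2, 28.8 and 27.9 CPM in vehicle and at 47.0, 86.0, 92.1 and 106 CPM in ivermectin libraries, a change of 1.28 (SE 0.226, edgeR adjusted p = 0.000601). The groups did not overlap, but ivermectin replicate 1 was only just above the highest vehicle library. Junb, another AP-1 subunit, had 74.2, 77.3, 86.5 and 77.1 CPM in vehicle and 107, 158, 158 and 178 CPM in ivermectin libraries. Its change was 0.91 (SE 0.149, edgeR adjusted p = 0.000187), and the groups were apart.

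Ier2, a nuclear immediate-early protein, was at 38.2, 34.2, 38.5 and 39.0 CPM in vehicle and at 42.0, 66.9, 79.5 and 94.2 CPM in ivermectin libraries (log2 change 0.87, SE 0.186, edgeR adjusted p = 0.0075). Nr4a1, an orphan nuclear receptor induced by calcium and cAMP, was at 61.8, 53.8, 51.3 and 58.5 CPM in vehicle and at 57.5, 117, 106 and 144 CPM in ivermectin libraries (0.88, SE 0.193, edgeR adjusted p = 0.0106). Of the 6 genes, Nr4a1 is the one whose groups overlapped: ivermectin replicate 1 lay inside the vehicle range. Btg2, an antiproliferative cofactor of mRNA decay, was at 58.4, 45.0, 50.2 and 39.0 CPM in vehicle and at 60.0, 86.0, 82.9 and 85.0 CPM in ivermectin libraries (0.70, SE 0.142, edgeR adjusted p = 0.00348). In each of the 6 genes ivermectin replicate 1 was the lowest library of its group. That library also had the highest share of hepatocyte-list counts in its group, 0.129% against 0.0761% to 0.0849%, and its part in these values was not tested.

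**Figure D2:**
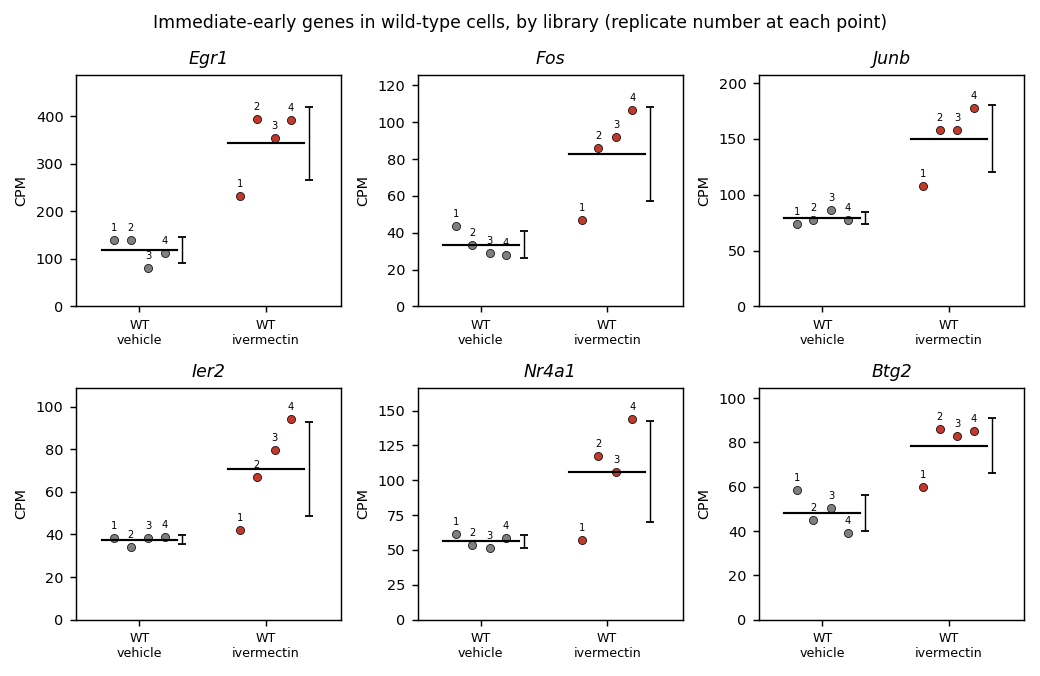
CPM of the 6 genes that rose, 1 point for each wild-type library with its replicate number, the mean as a line and the SD as a bar (n = 4 in each group). Replicate 1 is the lowest ivermectin library in all 6 panels.

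The immediate-early list held 42 symbols, of which 31 were expressed and tested. Of these, 27 had a log2 change above 0, 6 were called, and 13 had an unadjusted p under 0.05 (41.9%, against 5.22% of all genes). Their median log2 change was 0.31, against 0.0004 over all genes tested. By library, the median over the list relative to the vehicle mean was 0.10, 0.25, 0.47 and 0.49 in ivermectin replicates 1 to 4, and -0.06 to 0.07 in the vehicle libraries. Groups did not overlap for 8 of the 31 genes, all of them higher, while 1.4% of all genes were higher and 1.95% lower without overlap. Fosb, an AP-1 subunit, was at 27.0, 27.4, 28.8 and 40.9 CPM in vehicle and at 38.5, 45.5, 76.9 and 75.8 CPM in ivermectin libraries (0.87, SE 0.234, edgeR adjusted p = 0.106). Jun went from 130, 127, 111 and 128 CPM to 143, 151, 193 and 167 CPM (0.39, SE 0.0973, edgeR adjusted p = 0.0545). Both missed the threshold, as did the small Maf protein Maff (0.54, SE 0.170) and the GTPase Gem (0.46, SE 0.144). Without ivermectin replicate 1, Fosb, Jun, Maff and Gem all passed (edgeR adjusted p of 0.00452, 0.00882, 0.00963 and 0.0161), which made 10 called members. Calls in the list also numbered 10 without a low-count filter, and 7 with the 8 libraries alone, with the replicate block, after thinning and without ivermectin replicate 2. Lars2, which stood out in ivermectin replicate 4 alone, had an edgeR adjusted p of 9e-118 without a low-count filter, so a pass there carries little weight. Jun passed with the block (edgeR adjusted p = 0.0298), after thinning (0.0404) and without ivermectin replicate 2 (0.0458), and Fosb with the 8 libraries alone (0.0406) and without ivermectin replicate 2 (0.0483). The 6 calls became 5 with DESeq2 and without vehicle replicate 3, vehicle replicate 4 or ivermectin replicate 4, 4 with a mean of at least 50 counts, and 1, Egr1, with Alb as a covariate. Nr4a1 was lost with DESeq2 (adjusted p = 0.143) and without vehicle replicate 3, ivermectin replicate 2 or ivermectin replicate 4 (edgeR adjusted p from 0.0589 to 0.0675), and Btg2 without vehicle replicate 4 (edgeR adjusted p = 0.0654). With a mean of at least 50 counts Nr4a1 (edgeR adjusted p = 0.0784) and Ier2 (0.0562) were lost.

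Other members of the list lay near their vehicle level. Nr4a2, a close relative of Nr4a1, had a log2 change of 0.09 (95% interval -0.40 to 0.57), Klf10 one of -0.14 (-0.43 to 0.15) and Per1, a clock gene with cAMP response elements, one of -0.0009 (-0.27 to 0.27). All 3 intervals leave out a rise of 1.5-fold or more. Myc, at 7.50 CPM in vehicle libraries, had a log2 change of -0.38 with an SE of 0.360, too wide to give a direction.

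**Figure D3:**
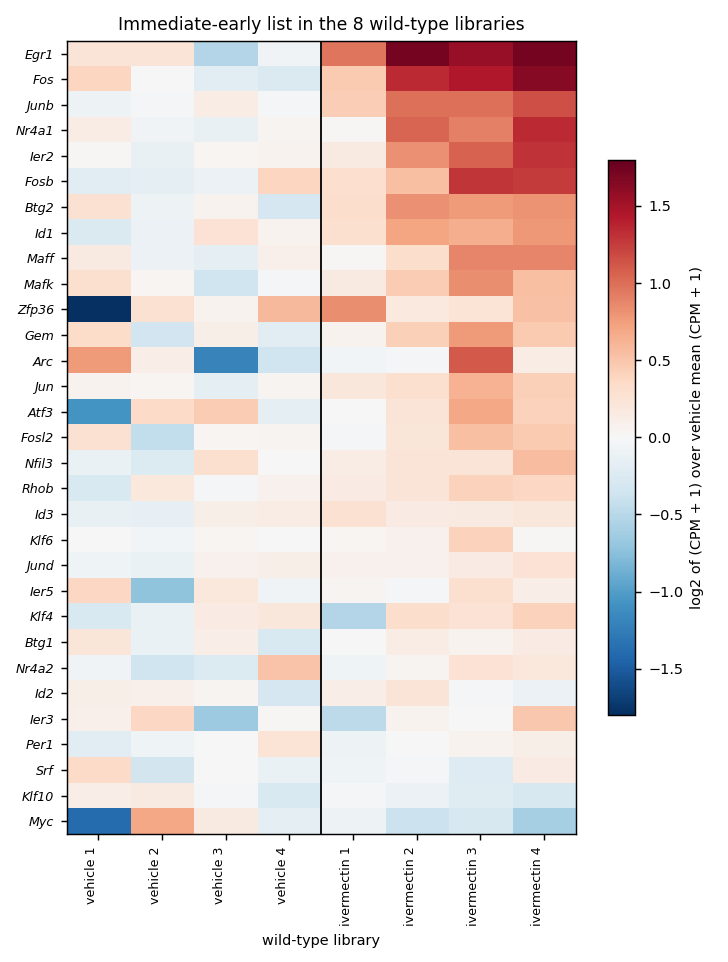
Rows are the 31 tested immediate-early genes, ordered by their log2 change, and columns are the 8 wild-type libraries. Colour is the log2 ratio of CPM + 1 to the vehicle mean + 1: ivermectin replicates 2, 3 and 4 are red in the upper rows, and replicate 1 is paler than they are for the 6 genes called.

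Genes that hold the MAP kinase pathway in check, mostly dual-specificity phosphatases and Sprouty proteins, had a median log2 change of 0.15 over 18 tested members. Of these, 0 were called by edgeR or DESeq2, which is near the 0.61% of all genes in edgeR and says little by itself. An unadjusted p under 0.05 was found for 4 (22.2%, against 5.22% of all genes). Dusp1, which dephosphorylates MAP kinases and is itself an immediate-early gene, was at 58.4, 45.0, 44.9 and 43.7 CPM in vehicle and at 58.5, 71.2, 69.6 and 65.8 CPM in ivermectin libraries (0.47, SE 0.134, edgeR adjusted p = 0.17). Dusp5, a nuclear phosphatase of ERK, was at 46.1, 46.9, 57.7 and 59.4 CPM in vehicle and at 58.5, 72.3, 77.6 and 82.7 CPM in ivermectin libraries (0.45, SE 0.129, edgeR adjusted p = 0.191). Dusp1 did not overlap between groups by a narrow margin, and Dusp5 did. Without ivermectin replicate 1 Dusp5 passed the threshold (edgeR adjusted p = 0.016). Errfi1, an inhibitor of the EGF receptor, had the reverse sign, from 33.5 ± 6.24 to 24.7 ± 1.27 CPM (SD, n = 4 each; edgeR adjusted p = 0.658). The median of this list was 0.01 without ivermectin replicate 3.

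In the list of CREB and calcium targets 20 of 27 tested members were above 0 (74.1%, against 50.1% of all genes) and 4 had an unadjusted p under 0.05 (14.8%, against 5.22%). Of the 27, 2 were called, against 0.61% of all genes: Fos and Nr4a1, which are shared with the immediate-early list. The call of Nr4a1 was lost in the settings given above, which left 1, and with Alb as a covariate 0 were called. The median was 0.09. Irs2, the insulin receptor substrate that CREB is known to drive in β-cells, was at 103, 118, 108 and 120 CPM in vehicle and at 139, 141, 141 and 130 CPM in ivermectin libraries (0.29, SE 0.0908, edgeR adjusted p = 0.292). The groups of Irs2 were apart, but it did not pass the threshold. Pcsk1, Scg2 and G6pc2, calcium- or cAMP-regulated genes expressed at high level in β-cells, had log2 changes of 0.05, 0.0008 and -0.004. The genes of calmodulin, Gq signalling and calcium stores (31 tested, 0 called, 0 at an unadjusted p under 0.05, median -0.03) and the targets of SRF and its cofactors (15 tested, 0 called, 1 at that p, median -0.005) lay close to 0.

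Among the 11 genes that fell outside the hepatocyte list, Scd1 had the smallest p. Scd1 encodes stearoyl-CoA desaturase, which makes monounsaturated fatty acids. It was at 275, 126, 168 and 222 CPM in vehicle and at 118, 59.7, 58.3 and 54.3 CPM in ivermectin libraries. All 4 ivermectin libraries lay below all 4 vehicle libraries, with ivermectin replicate 1 nearest to them. The log2 change was -1.39 (SE 0.173, 95% interval -1.74 to -1.04, edgeR adjusted p = 2.38e-06). In the libraries labelled knockout Scd1 was at 129 ± 12.9 CPM in vehicle and 126 ± 5.21 CPM in ivermectin (SD, n = 4 each), and the difference between the lines' responses passed the threshold (1.35, SE 0.233, edgeR adjusted p = 0.00205). That call was lost with DESeq2 (adjusted p = 0.0864) and with Alb as a covariate (0.80, edgeR adjusted p = 1), and in 0 of the 16 fits that left out 1 library.

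Phyh, a peroxisomal enzyme that breaks down the branched fatty acid phytanate, had the tightest groups of the 11. Its level was 43.8, 44.0, 44.9 and 40.9 CPM in vehicle and 24.5, 25.8, 23.9 and 26.8 CPM in ivermectin libraries. No library strayed from its group, and ivermectin replicate 1 was no exception. The change was -0.78 (SE 0.141, edgeR adjusted p = 0.00079), against 0.13 in the libraries labelled knockout, and the difference between the lines passed (0.91, SE 0.193, edgeR adjusted p = 0.0207). It no longer passed with DESeq2 (adjusted p = 0.246), after thinning (edgeR adjusted p = 0.112), with the hepatocyte list left out (0.138) or with Alb as a covariate (1), nor without replicate 1 of wild-type vehicle, replicate 3 of wild-type ivermectin, replicate 2 of knockout-labelled vehicle or replicate 1 of knockout-labelled ivermectin (0.0534 to 0.0764).

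Fn1, the matrix protein fibronectin, was at 23.6, 15.6, 11.8 and 26.9 CPM in vehicle and at 8.50, 6.58, 4.64 and 4.59 CPM in ivermectin libraries (-1.62, SE 0.290, edgeR adjusted p = 0.000652). Its groups did not overlap. For Fn1 the difference between the lines passed (1.77, SE 0.392, edgeR adjusted p = 0.0341), but not with DESeq2 (adjusted p = 0.12), after thinning (edgeR adjusted p = 0.405), with the hepatocyte list left out (0.138), with Alb as a covariate (1) or in 9 of the 16 fits that left out 1 library (0.0514 to 0.291).

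Sepp1, the secreted selenium carrier selenoprotein P, was at 181, 106, 113 and 117 CPM in vehicle and at 106, 82.8, 76.9 and 75.8 CPM in ivermectin libraries (-0.57, SE 0.129, edgeR adjusted p = 0.0166). Its groups met at 106 CPM, and it missed the threshold without vehicle replicate 1 (-0.37, edgeR adjusted p = 0.408) and without ivermectin replicate 2, 3 or 4. Pygl, the liver form of glycogen phosphorylase, was at 18.0, 17.6, 22.4 and 21.4 CPM in vehicle and at 13.5, 9.32, 7.29 and 9.95 CPM in ivermectin libraries (-0.96, SE 0.233, edgeR adjusted p = 0.0374). Pygl lost the call in 6 of the 8 fits that left out 1 wild-type library, and with DESeq2 (adjusted p = 0.264). Cat, the peroxisomal enzyme catalase, was at 45.0, 12.7, 15.0 and 33.4 CPM in vehicle and at 8.50, 3.84, 6.63 and 3.83 CPM in ivermectin libraries (-2.15, SE 0.329, edgeR adjusted p = 5.71e-05).

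**Figure D4:**
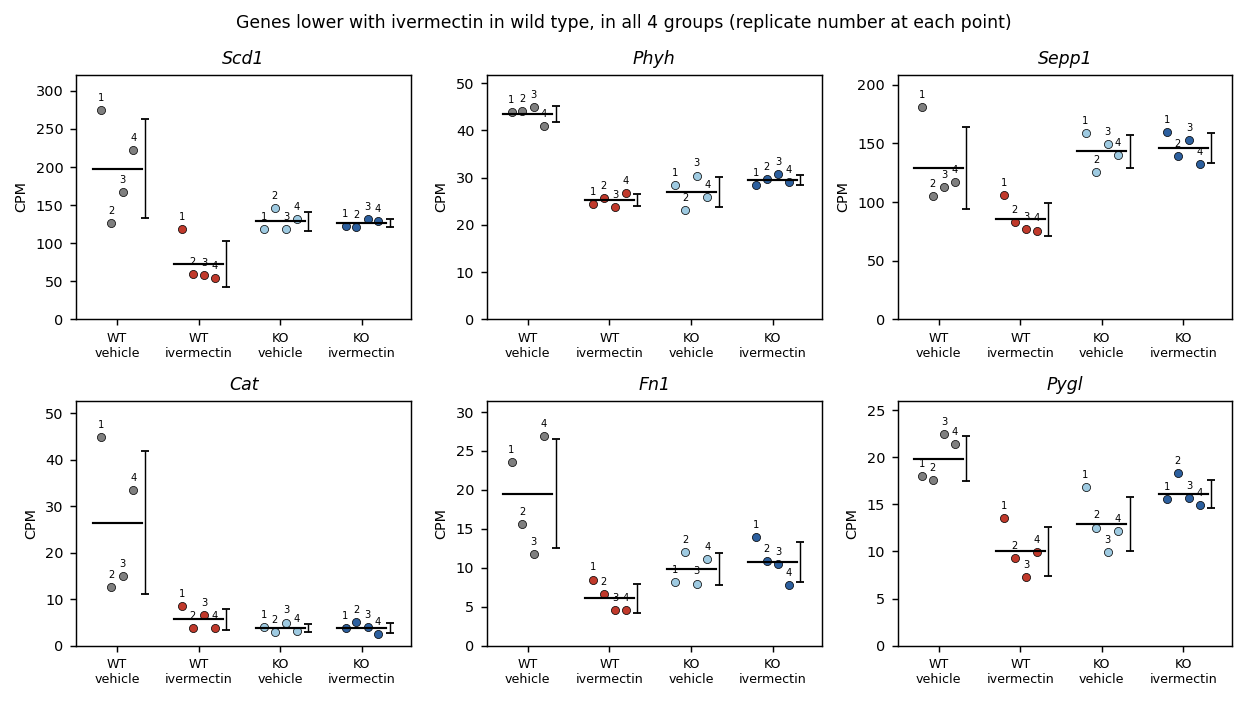
CPM of 6 genes that fell with ivermectin in wild type, in all 4 groups (WT, wild type; KO, libraries labelled P2ry1 knockout), 1 point for each library with its replicate number, the mean as a line and the SD as a bar (n = 4 each). Scd1, Phyh, Sepp1, Fn1 and Pygl were read at more than 5 CPM in every knockout-labelled library, and Cat was under 6 CPM there. Vehicle replicates 1 and 4 are the highest wild-type libraries for Scd1, Sepp1, Cat and Fn1.

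Mgst1, H2-Q10, Mug1 and Gm2083 were lower still in the libraries labelled knockout. Mgst1, a microsomal glutathione transferase, went from 20.6 ± 14.1 to 3.31 ± 2.75 CPM in wild type (SD, n = 4 each). In vehicle libraries labelled knockout it was at 1.48 ± 1.03 CPM (SD, n = 4), a mean under the 1.49 to 1.72 CPM that 3 counts make there. H2-Q10, a class I histocompatibility gene known from liver, the protease inhibitor Mug1 and the predicted gene Gm2083 ranged from 15.6 to 34.9 CPM in wild-type vehicle, from 4.32 to 7.90 CPM in wild-type ivermectin, and from 1.33 to 4.93 CPM in knockout-labelled vehicle libraries. These 3 belong to families with near-identical copies, so their single values are uncertain. Cat, Mgst1, H2-Q10 and Mug1 are all known for high expression in liver. The other genes called outside the hepatocyte list were not checked for this, so they are not thereby set apart from liver genes.

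Hepatocyte transcripts moved with these genes. Of 62 tested members of the hepatocyte list 49 were called, all lower, where 0.554% of all genes were called lower. The count data held 184 members, and the filter keeps a gene that reaches its minimum in 4 libraries. A member read mainly in wild-type vehicle can be tested through that group alone, so the shared direction may be partly set by the filter. How many entered that way was not tested. The list's share of counts, taken over tested and untested members, was 0.326% ± 0.141 with vehicle and 0.0920% ± 0.0247 with ivermectin in wild type (SD, n = 4 each). It was 0.0664% ± 0.00672 and 0.0803% ± 0.0233 in the knockout-labelled groups. All 16 markers that define hepatocytes were read, 15 were called lower, and their summed level was 739 to 2028 CPM in vehicle and 164 to 398 CPM in ivermectin libraries. Bulk counts cannot tell fewer cells of a type from less RNA in each cell, and RNA that came from another sample cannot be told apart from RNA of these cells. By replicate, the list's share in vehicle was 0.500%, 0.206%, 0.218% and 0.381%, so replicates 1 and 4 were the high ones. They were also the high ones for Scd1, Cat, Fn1, Sepp1, Mgst1, H2-Q10, Mug1 and Gm2083. Phyh and Pygl did not follow that order: Phyh was lowest in vehicle replicate 4 and Pygl highest in vehicle replicate 3. Among ivermectin libraries Pygl was highest in replicate 1, as the list's share was, and Phyh in replicate 4. With the Alb level of each library as a covariate the log2 change of Phyh was -0.74, that of Pygl -0.78, that of Scd1 -0.95, that of Cat -0.81, and that of H2-Q10 0.13, and of all genes only Egr1 kept the threshold. Alb itself did not overlap between the wild-type groups, at 328 to 923 CPM in vehicle and 57.7 to 172 CPM in ivermectin libraries. This covariate therefore takes up part of the treatment contrast, and a call lost with it cannot be read as a lost response. What part of the changes outside the hepatocyte list came with the hepatocyte transcripts was not tested. With the hepatocyte list left out before scaling and testing, 16 genes were called, against 17 outside that list when it was kept, and Pygl was the 1 lost.

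Markers of other cell types differed in level. Of 15 pancreatic acinar markers, 8 were at 0 in all 8 wild-type libraries, and the sum over them was 3.91 to 6.74 CPM in vehicle and 1.64 to 6.63 CPM in ivermectin libraries. Endothelial and blood cell markers summed to 13.7 to 24.7 CPM in vehicle and 3.29 to 11.0 CPM in ivermectin libraries, and fibroblast markers, which include Fn1, to 21.4 to 37.2 and 8.77 to 14.5 CPM. Skeletal muscle markers gave 32.5 to 45.9 CPM in vehicle and 8.22 to 33.0 CPM in ivermectin libraries. Alpha-cell markers (836 to 998 against 865 to 962 CPM) and duct markers (41.1 to 58.8 against 45.7 to 53.6 CPM) overlapped. So did delta- and PP-cell markers, at 279.7 to 339.4 CPM in vehicle and 266.9 to 319.2 CPM in ivermectin libraries, and neuronal and glial markers, at 540.6 to 589.7 and 523.6 to 595.2 CPM.

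Txnip and the genes that glucose drives through the transcription factor ChREBP formed the list with the lowest median among the pathway lists: 14 of 17 tested members were below 0, with a median log2 change of -0.14, and 1, Scd1, was called. An unadjusted p under 0.05 was found for 3 of the 17 (17.6%, against 5.22% of all genes). Txnip itself, a thioredoxin-binding protein that glucose induces in β-cells, was at 117, 88.0, 99.4 and 92.9 CPM in vehicle and at 85.0, 73.4, 63.6 and 69.7 CPM in ivermectin libraries. The groups were apart, yet Txnip did not pass the threshold (-0.42, SE 0.111, edgeR adjusted p = 0.0767). It passed without a low-count filter (-0.41, edgeR adjusted p = 0.0315), without ivermectin replicate 1 (-0.52, edgeR adjusted p = 0.0112) and without vehicle replicate 2 (-0.48, edgeR adjusted p = 0.0436), and moved to -0.34 without vehicle replicate 1 (edgeR adjusted p = 0.505). In the libraries labelled knockout Txnip changed by -0.02 (SE 0.113), and the difference between the lines did not pass (0.40, SE 0.158, edgeR adjusted p = 0.87). Mlxipl, which encodes ChREBP, had a change of -0.18 in wild type and -0.19 in the knockout-labelled libraries, neither called. Other lipogenic members at high level stayed close to 0: Acly had a change of -0.08 (SE 0.0493), Fasn -0.03 (SE 0.0800) and Scd2 -0.06 (SE 0.0514). Arrdc4, a relative of Txnip in sequence, was at 11.4 and 10.1 CPM, with an SE of 0.292 around a change of -0.13.

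The list of SREBP, sterol and fatty acid synthesis genes had a median of -0.03 over 41 tested members, 27 of them below 0, and 1 called, again Scd1. It also takes in Abca1, which is not a synthesis gene, so its counts do not describe synthesis alone. An unadjusted p under 0.05 was found for 8 of the 41 (19.5%, against 5.22% of all genes), and 4 were lower without overlap, as were 1.95% of all genes. Abca1, which exports cholesterol, went from 40.8 ± 2.73 to 29.3 ± 3.98 CPM, and the phosphatidate phosphatase Lpin1 from 50.6 ± 3.60 to 39.5 ± 4.70 CPM (SD, n = 4 each). Both had groups that did not overlap, and neither passed (edgeR adjusted p = 0.534 and 0.791). The fatty acid elongase Elovl6 had the opposite sign, from 22.6 ± 4.90 to 30.1 ± 3.53 CPM (SD, n = 4 each; edgeR adjusted p = 0.863).

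In the list of NRF2 targets and antioxidant genes Cat was the 1 member called of 26, where 0.61% of all genes were, and the median was -0.004. Groups did not overlap for 3 lower members and 1 higher one, against 1.95% and 1.4% of all genes. Gstm1, a glutathione transferase, was at 84.3, 77.3, 106 and 79.9 CPM in vehicle and at 67.0, 57.0, 65.0 and 67.4 CPM in ivermectin libraries (-0.44, SE 0.111, edgeR adjusted p = 0.0561). Gclc, the catalytic subunit of the first enzyme of glutathione synthesis, was at 65.2, 46.0, 41.7 and 72.4 CPM in vehicle and at 40.0, 41.7, 32.5 and 39.8 CPM in ivermectin libraries (-0.55, SE 0.151, edgeR adjusted p = 0.129). Neither overlapped between groups, though the nearest Gclc libraries were almost level, and neither passed. Both passed without vehicle replicate 2 (edgeR adjusted p = 0.0354 for Gstm1 and 0.0436 for Gclc) and without a low-count filter, and Gclc also without vehicle replicate 3 (edgeR adjusted p = 0.0213). Among other members, Hmox1 had a log2 change of -0.02 (SE 0.0861), Txnrd1 of 0.05 (SE 0.0692) and Srxn1 of 0.07 (SE 0.0875), values too close to 0 to give a direction. Aldh2, the mitochondrial aldehyde dehydrogenase, and Acaa2, an enzyme of mitochondrial fatty acid oxidation, had changes of -0.66 (SE 0.181) and -0.91 (SE 0.260). Neither passed (edgeR adjusted p = 0.114 and 0.172), though Aldh2 did without a low-count filter and without vehicle replicate 2, vehicle replicate 4 or ivermectin replicate 4 (edgeR adjusted p from 0.0138 to 0.0481). Gclc and Acaa2 were highest in vehicle replicates 1 and 4, as the hepatocyte list's share of counts was. Gstm1 and Aldh2 were highest in vehicle replicate 3. Vehicle replicates 2 and 3, without which Gclc passed, had the lowest shares of that group. What part of these changes came with hepatocyte transcripts was not tested.

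Insulin and the other products of the granule did not change detectably. Ins2 was at 22521, 19420, 20718 and 19097 CPM in vehicle and at 18667, 21295, 20926 and 24679 CPM in ivermectin libraries, a log2 change of 0.07 (95% interval -0.07 to 0.21). Ins1 had a change of 0.07 (-0.06 to 0.20), Iapp, islet amyloid polypeptide, one of 0.04 (-0.07 to 0.14), and Chga, chromogranin A, one of 0.02 (-0.08 to 0.12). These intervals leave out changes of 1.5-fold, and Iapp, Chga and Ins2 changed sign without ivermectin replicate 4. Of 24 tested hormone and granule genes 0 were called and 1 (4.17%) had an unadjusted p under 0.05. These counts are near the 0.61% and 5.22% of all genes and say little by themselves. The 1 gene was Rbp4, retinol-binding protein, at 101, 68.5, 75.9 and 88.2 CPM in vehicle and 57.5, 64.1, 62.3 and 65.8 CPM in ivermectin libraries (-0.42, SE 0.126, edgeR adjusted p = 0.243). Rbp4 is also made in liver, and its highest vehicle libraries were replicates 1 and 4.

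The transcription factors that define the β-cell gave 0 calls and 1 unadjusted p under 0.05 (4.17%) among 24 tested. These are near the 0.61% and 5.22% of all genes and say little by themselves. The median of the 24 was -0.02, and intervals lay inside 1.5-fold for 21 of them (87.5%, against 70.6% of all genes). Pdx1 changed by -0.08 (SE 0.0681) and Mafa by -0.04 (SE 0.0685). On the length-corrected scale of TPM, which divides by transcript length, Mafa was at 553 TPM and Pdx1 at 440 TPM in vehicle libraries, against 38.3 TPM for P2ry1 and 22.8 TPM for P2rx4. P2ry1 changed by -0.03 (95% interval -0.24 to 0.17) and P2rx4 by -0.03 (-0.39 to 0.32), and both signs turned under single left-out libraries. Of 31 purinergic receptor and ectonucleotidase genes 13 were expressed and tested, and of 36 other known ivermectin targets and transporters 17 were, with 0 called in either list and 1 at an unadjusted p under 0.05 over both.

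Genes of ATP-sensitive potassium, calcium and other channels (28 tested), of granule exocytosis (41), of receptors and cAMP signalling (29), of glycolysis (40) and of the citrate cycle (30) had 0 members called, 6 in all at an unadjusted p under 0.05, and medians between -0.03 and 0.004. Of all genes 0.61% were called and 5.22% had such a p, so these counts say little by themselves. For the exocytosis list 31 intervals lay inside 1.5-fold, and for the citrate cycle 28. The stress lists also had 0 calls, which is near the 0.61% of all genes and says little by itself: 0 were called of 40 genes of protein folding in the endoplasmic reticulum (median 0.04, all 40 intervals inside 1.5-fold), 26 of the integrated stress response (0.003), 22 cytosolic heat shock genes (-0.02), 27 of p53 and apoptosis (0.06) and 18 of the hypoxia response (-0.10). An unadjusted p under 0.05 was found for 3 of the integrated stress list (11.5%), 2 heat shock genes (9.09%), 1 of the folding list (2.5%) and 0 of the other two lists, against 5.22% of all genes. Cebpb, a transcription factor of the stress and cytokine responses, was the most changed stress gene by p, at 37.1, 27.4, 36.3 and 34.4 CPM in vehicle and 41.5, 44.9, 54.4 and 42.1 CPM in ivermectin libraries (0.44, SE 0.156, edgeR adjusted p = 0.562). Its groups were apart, as were those of Cdk2, a cell cycle kinase, which went the other way from 55.1 ± 4.20 to 41.2 ± 5.06 CPM (SD, n = 4 each; edgeR adjusted p = 0.236). Together, the 59 cell cycle and replication genes had a median of 0.0009 and 0 calls. DESeq2 called 0 members in each of the lists in which edgeR called 0.

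**Figure D5:**
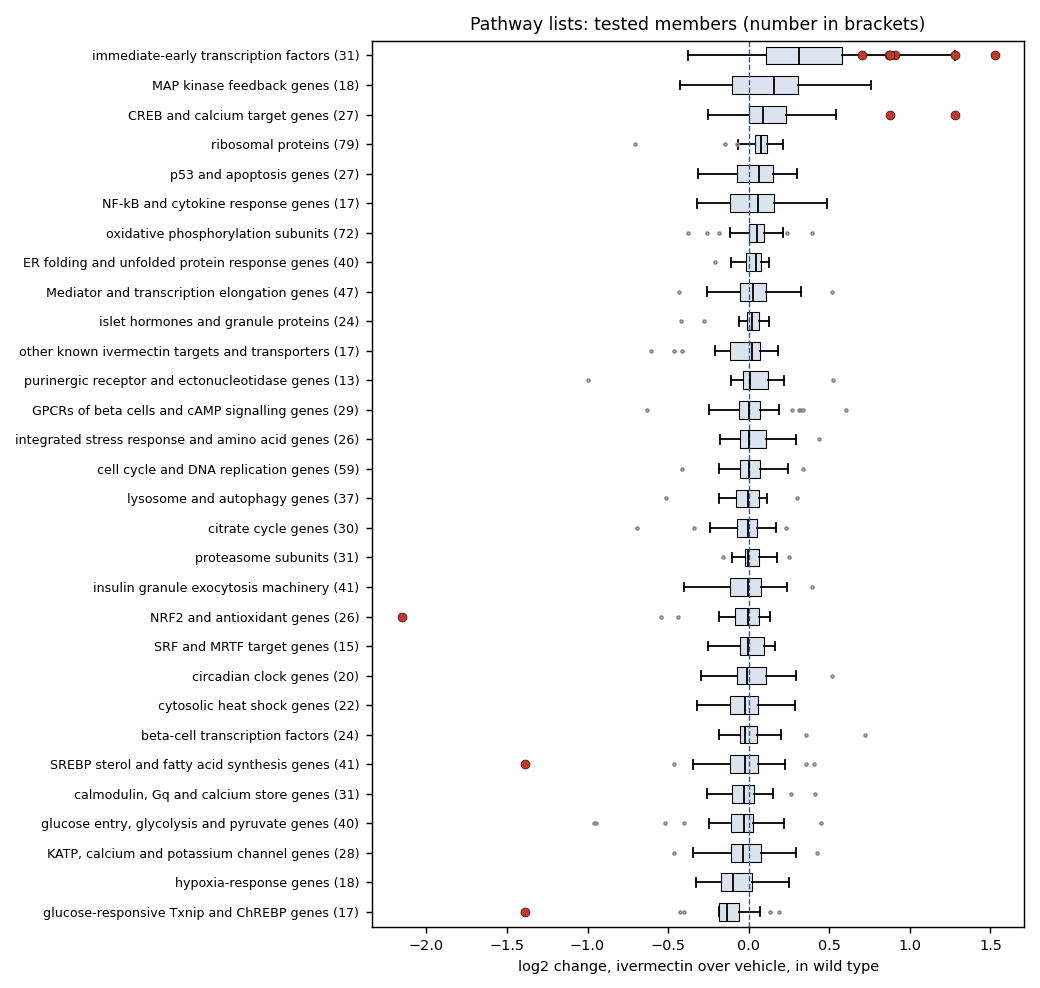
Boxes show the log2 changes of the tested members of 30 pathway lists (box, quartiles; line, median; whiskers, 1.5 times the interquartile range; grey points, members beyond them; red points, members called). The dashed line is the median of all genes tested, near 0: the immediate-early list lies to its right, and most other boxes straddle it.

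Most ribosomal protein genes and subunits of oxidative phosphorylation had small log2 changes above 0, and none was called. Of 79 ribosomal protein genes 69 were above 0 (87.3%), with a median log2 change of 0.08. Of 72 oxidative phosphorylation subunits 56 were (77.8%), with a median of 0.05, against 50.1% of all genes above 0. In each list edgeR and DESeq2 called 0, near the 0.61% of all genes in edgeR. In each, 6 had an unadjusted p under 0.05 (7.59% and 8.33%, against 5.22% of all genes). The libraries overlapped: relative to the vehicle mean, the ribosomal protein median was 0.12, -0.06, 0.005 and -0.06 in vehicle replicates 1 to 4 and -0.07, 0.06, 0.11 and 0.22 in ivermectin replicates 1 to 4. For oxidative phosphorylation it was 0.10, -0.08, 0.02 and -0.04 in vehicle and -0.05, 0.07, 0.07 and 0.19 in ivermectin libraries. In the knockout-labelled libraries 74 of the 79 were above 0, with a median of 0.12, and the oxidative phosphorylation median was 0.11. Short genes in general had the same sign: the 758 genes under 1000 nucleotides had a median of 0.04 in wild type and 0.11 in the knockout-labelled libraries, while the 3258 genes of 4000 nucleotides or more had medians of -0.01 and -0.05. Abundant short genes outside both lists had a median of 0.04, with 157 of 240 above 0. Without ivermectin replicate 4 the ribosomal protein median was 0.03 and the oxidative phosphorylation median 0.02. What part of these shifts came with transcript length or that library was not tested. Ndufb5, a subunit of complex I, was the single gene of these lists with the smallest p, at 62.9, 63.6, 74.8 and 70.6 CPM in vehicle and 82.5, 75.6, 88.2 and 117 CPM in ivermectin libraries (0.39, SE 0.123, edgeR adjusted p = 0.314).

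How small a change these libraries could show depended on abundance. Among 1827 genes with an average log2 CPM of 7 or more, the 95% interval lay inside 1.5-fold for 99.6%, and among 4749 genes from 5 to 7 for 94.9%. It did so for 35.8% of 3667 genes from 3 to 5 and for 0 of 579 genes under 3. The lists above in which most members are abundant are therefore bounded closely, and lists such as the purinergic genes, with a median of 8.69 CPM in vehicle libraries, are not.

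The same drug comparison in the libraries labelled knockout, which share no library with the wild-type one, called 0 of 10822 genes (0%) with edgeR, 822 at an unadjusted p under 0.05, and 0 in the other settings run except without a low-count filter (23). Whether the response differed between the lines was tested for every gene, and 24 passed (0.222%), each of which was also called in wild type. Egr1 was the 1 gene of these 24 that rose in wild type: its change was 0.31 (SE 0.116) in the knockout-labelled libraries, a difference of -1.22 (SE 0.179, edgeR adjusted p = 0.000351). With DESeq2 17 differences passed, and of the 4 genes outside the hepatocyte list (Egr1, Scd1, Phyh and Fn1) that left Egr1. With Alb as a covariate 0 passed. For the other 5 immediate-early genes the difference between the lines did not pass: Fos had 0.47 in the knockout-labelled libraries, Junb 0.47, Nr4a1 0.50, Ier2 0.23 and Btg2 0.10, with adjusted p-values of the difference from 0.435 to 1. These 5 cannot be called particular to wild type. For Scd1, Phyh and Fn1 the vehicle level was 198, 43.4 and 19.5 CPM in wild type and 129, 27.0 and 9.82 CPM in the knockout-labelled libraries, a difference between the lines that was not tested here. The number of differences fell to 8 without knockout-labelled ivermectin replicate 1 and to 14 without wild-type ivermectin replicate 3, and rose to 48 without wild-type ivermectin replicate 1.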

How the data were processed

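Poly(A)-selected RNA (125 ng, 11 cycles of amplification) was sequenced from both ends for 42 nucleotides, per the labels' protocols. STAR 2.7.2b, RSEM 1.3.3, DESeq2 1.32.0 and build mm10 are named without roles in the submitters' processing notes. Expected counts and TPM were deposited per library in RSEM gene tables, with transcript lengths, per the file headers. The authors also deposited a whole-number count table, used as an alternative. The normalized table and human single-cell files were not used.

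Expected counts were rounded, filtered with filterByExpr (minimum count 10, minimum total 15), which kept 10822 of 23329 genes, scaled with TMM and tested with edgeR 4.0.16 in R 4.3.3 (quasi-likelihood F test, 1 mean per group over 16 libraries, Benjamini-Hochberg adjustment over all genes tested, threshold 0.05). List medians per library used log2 CPM with a prior count of 2. The script was tested on simulated data. Replicate numbers did not pair libraries: correlations of same-numbered deviations were -0.166 to 0.050.

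The comparison, lists and alternatives were chosen with earlier results of these data known. Genes are named by rule: every gene called higher; every gene called lower outside the hepatocyte list; called list members and the 2 smallest p-values per list where mean log2 CPM reached 3; the 12 smallest p-values that miss the threshold outside the immediate-early and hepatocyte lists where it reached 4; and insulin, amylin and receptor genes. Some genes that the rule takes in are not reported here. Other list members named were chosen after their values were seen. Promoters came from RefSeq's GRCm38.p6 table.

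Alternatives were DESeq2 1.42.0, relative log expression factors, other filters, the 8 libraries alone, a replicate block, the deposited count table, thinning to the smallest total, the hepatocyte list left out, Alb as a covariate, Rn45s and Lars2 left out, and each library left out in turn.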

Additional observations from a re-analysis of the deposited data

Results flagged for a closer look

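In 202 groups of 4 values from wild-type libraries (the named genes and 5 library measures), 17 had their highest or lowest library well apart from the rest. By chance about 1 in 20, or 10.1, would be. Values of different genes in 1 library are not independent.

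Ivermectin replicate 4 took 2.986% of its counts in Rn45s, or 31113 CPM, against 0.1426% to 0.1668%, or 1424 to 1661 CPM, in the rest of its group. It also had the highest Bax of its group (136.3 CPM, the others 116 to 118.9) and the lowest Prkca (93.39 CPM, the others 104.7 to 106.1). Ivermectin replicate 1 was the highest of its group for Scd1 (118.4 CPM, the others 54.35 to 59.74) and for the hepatocyte list's share of counts (0.1287%, the others 0.07612% to 0.08491%), and the lowest for Btg2 (59.97 CPM, the others 82.86 to 86.04) and Pdhb (204.9 CPM, the others 236 to 239.6). Ivermectin replicate 2 was the lowest for Tpm1 (62.48 CPM, the others 66.97 to 67.61) and for the number of genes with a count (14144, the others 14257 to 14278).

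Among vehicle libraries, replicate 1 was the highest for Sepp1 (181 CPM, the others 105.6 to 117), Dusp1 (58.45 CPM, the others 43.65 to 44.98) and Entpd4 (193.3 CPM, the others 182 to 183.8). Vehicle replicate 2 was the lowest for Ier2 (34.23 CPM, the others 38.22 to 39.01), replicate 3 the highest for Dbp (20.3 CPM, the others 10.12 to 11.14), and replicate 4 the highest for Cdk2 (61.3 CPM, the others 52.35 to 53.78) and the lowest for Prkca (96.59 CPM, the others 118.3 to 122.5).

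For 10 named genes the response differed between the lines by the direct test in edgeR (log2 difference, response in libraries labelled knockout minus response in wild type). Egr1 was lower by that measure (-1.22, adjusted p = 0.000351). Scd1 (1.35, adjusted p = 0.00205), Phyh (0.909, adjusted p = 0.0207) and Fn1 (1.77, adjusted p = 0.0341) were higher, and none of these 3 passed with DESeq2. The other 6 are hepatocyte-list genes: Alb (3.34), Apoa1 (3.83), Apoe (2.57), C3 (3.39), Serpina3k (4.4) and Trf (3.32), with edgeR adjusted p from 3.89e-05 to 0.0202.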

How the results depend on the processing

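The count of 66 genes for ivermectin in wild type became 140 without a low-count filter, 7 with a mean of at least 50 counts, 16 with the hepatocyte list left out, which removed 49 of the calls, and 1 with Alb as a covariate, and ranged from 56 to 100 without single wild-type libraries. The knockout-labelled count of 0 became 23 without a low-count filter. The difference between the lines, 24 genes, became 82 without a low-count filter, 4 with a mean of at least 50 counts, 10 after thinning, 2 with the hepatocyte list left out (4 of the 24 are outside it) and 0 with Alb as a covariate, where 373 genes had an unadjusted p under 0.05, and ranged from 8 to 48 without single libraries. The filters tested other numbers of genes. Without a low-count filter Lars2, high in ivermectin replicate 4 alone, had an edgeR adjusted p of 9e-118. The p-values of that fit therefore say little about the spread between libraries. The causes of the moves with Alb, thinning and left-out libraries were not tested. Alb did not overlap between the wild-type groups, so a call lost with that covariate cannot be read as a lost response. With a replicate block, which the libraries' correlations do not call for, the wild-type count was 72 and the difference 47.

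With Alb as a covariate the log2 change in wild type took the opposite sign for Actb (0.0685), C3 (0.0783), H2-Q10 (0.13), Mafa (0.0154), Mgst1 (0.15), Mug1 (0.49), P2rx4 (0.0153) and Trf (0.0559). Alb itself (0.0186) is held near 0 there by the fit's construction. Thinning turned Isl1 (0.0232) and Pax6 (0.0163). Left-out libraries gave ranges across 0 for Chga (-0.0151 to 0.0449), Iapp (-0.00714 to 0.0741), Ins2 (-0.00847 to 0.12), Isl1 (-0.0625 to 0.0004604), Nkx6-1 (-0.12 to 0.00407), Npy (-0.0111 to 0.0813), P2rx4 (-0.13 to 0.0493), P2ry1 (-0.0813 to 0.0282), Pax6 (-0.0542 to 0.00629) and Rn45s (-0.31 to 2.59). Except for Alb, C3, H2-Q10, Mgst1, Mug1 and Trf, none of these genes had been called. Depth limits genes under an average log2 CPM of 5 most, and the vehicle libraries were the shallower ones.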

Other observations

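Some genes outside the lists had small unadjusted p-values and did not pass the threshold. Of these, Ptp4a1, Zfp575 and Raver1-fdx1l, and Aldh2 above, passed without a low-count filter, where a pass carries little weight. Rnf26, a membrane-bound ubiquitin ligase, was at 51.7, 55.7, 60.9 and 60.4 CPM in vehicle and at 41.0, 44.4, 41.1 and 39.0 CPM in ivermectin libraries, with no overlap (-0.46, SE 0.128, edgeR adjusted p = 0.126). Ptp4a1, a prenylated phosphatase, went from 59.6, 50.8, 31.0 and 59.4 CPM to 59.0, 77.8, 88.2 and 86.5 CPM (0.61, SE 0.173, edgeR adjusted p = 0.172), with replicate 1 again the lowest of the treated libraries. Zfp575, a zinc finger gene, was at 256, 210, 193 and 189 CPM in vehicle and at 193, 291, 345 and 494 CPM in ivermectin libraries (0.62, SE 0.179, edgeR adjusted p = 0.188). In the libraries labelled knockout it was at 381 ± 54.0 CPM in vehicle and 481 ± 121 CPM in ivermectin (SD, n = 4 each).

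Raver1-fdx1l, a read-through transcript that shares reads with its neighbours and is therefore uncertain, was at 11.2, 55.7, 20.3 and 42.7 CPM in vehicle and at 23.0, 13.7, 6.63 and 11.5 CPM in ivermectin libraries, which overlap (-1.22, SE 0.346, edgeR adjusted p = 0.166). It passed without vehicle replicate 1 (edgeR adjusted p = 0.0149), without ivermectin replicate 1 (0.0124) and without a low-count filter, where a pass carries little weight.

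Hist1h2ap, a replication-dependent histone gene with near-identical copies, was at 37.1, 35.2, 25.6 and 6.50 CPM in vehicle and at 62.0, 60.8, 33.1 and 88.8 CPM in ivermectin libraries (1.24, SE 0.313, edgeR adjusted p = 0.0544). It passed in 8 of the other settings: without a low-count filter, with the 8 libraries alone (edgeR adjusted p = 0.011), with the replicate block (0.0244), after thinning (0.0106), with Rn45s and Lars2 left out (0.044), and without vehicle replicate 1 (0.0442), vehicle replicate 2 (0.0436) or ivermectin replicate 3 (0.00828). Its groups overlapped, the 6 tested transcripts of the list of histone and other RNAs without a poly(A) tail had a median log2 change of 0.14, and their value is uncertain in a poly(A)-selected library.

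Without ivermectin replicate 1 the calls were 19 higher and 81 lower, and all 66 of the full comparison were among them. Beside Fosb, Jun, Maff, Gem and Dusp5, the further higher calls included Ptp4a1, Zfp575, the nuclear noncoding RNA Malat1 (0.66, edgeR adjusted p = 0.00178), Luc7l3 (0.43, edgeR adjusted p = 0.0227) and Rabggtb (0.41, edgeR adjusted p = 0.0441). Rn45s (2.58, edgeR adjusted p = 0.00192) and Lars2 (2.30, edgeR adjusted p = 0.00764) were called there too. Ivermectin replicate 4, 1 of the 3 treated libraries that remain, held 2.99% of its counts in Rn45s and had 1482 CPM of Lars2, against 93.6 to 127 CPM in the rest of its group.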
